A study of Mus musculus with 12 samples.

Results

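The 6 libraries described here came from the experimental line of an inducible SDHC-loss model and cover 6 time points, a start without doxycycline (day 0) followed by treatment for 5, 9, 12, 16 or 20 days. They were chosen by their labels, which name the line and the day, and make up 6 of the 12 libraries of the study. The cells were immortalized mouse embryonic fibroblasts (iMEFs) of genotype R26M2rtTA/+;TetOcre;Sdhcfl/fl. In this genotype the Rosa26 locus expresses the reverse tetracycline transactivator, and doxycycline at 1 µg/mL switches on Cre recombinase from a tetracycline operator promoter, which removes exon 4 from both floxed *Sdhc* alleles. The other 6 libraries came from the control line, R26M2rtTA/+;TetOcre;Sdhcfl/wt, which received the same doxycycline on the same days and kept 1 allele without loxP sites. Both lines therefore carried the transactivator and the Cre transgene, and both were grown in low-glucose DMEM with serum. Days 0, 5 and 9 are called early and days 12, 16 and 20 late. Of the early days only day 0 came before doxycycline. The paper placed the midpoints of *Sdhc* rearrangement and of SDHC protein loss before day 5. Early against late is therefore not a comparison of before with after SDHC loss. With 1 library per line and day and a single fibroblast line per genotype, the 6 libraries are serial samples of a single culture history, so every p-value measures only the spread between these libraries. The time after doxycycline and the time in culture cannot be told apart within the line.

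SDHC anchors the succinate dehydrogenase complex in the inner mitochondrial membrane, where the complex turns succinate into fumarate in the TCA cycle. Succinate that accumulates without the complex can inhibit dioxygenases that need 2-oxoglutarate. These include the TET enzymes, which oxidize methylated cytosine and so start its removal, and many histone lysine demethylases. In mammals nearly all stable cytosine methylation sits at CpG dinucleotides. Promoters rich in CpGs are mostly free of it, while gene bodies and intergenic DNA are mostly methylated. Methylation was measured here by reduced representation bisulfite sequencing (RRBS), which reads bisulfite-converted DNA from CpG-rich restriction fragments and therefore covers promoters much more densely than the rest of the genome. The deposited value of a cytosine is the percent of its reads called methylated, given below as a beta value between 0 (none) and 1 (all).

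Sequences are shown for 4 promoters that were among those with the largest differences or trends and that had listed CpGs next to the start. Each line gives the 300 bases from 250 before to 50 after the RefSeq transcription start on assembly GRCm38.p6 (mm10), read 5′ to 3′ on the strand of the gene. Capitals mark the CpGs that were listed in all 6 libraries, and lower case letters include the CpGs that were not.
Nme8: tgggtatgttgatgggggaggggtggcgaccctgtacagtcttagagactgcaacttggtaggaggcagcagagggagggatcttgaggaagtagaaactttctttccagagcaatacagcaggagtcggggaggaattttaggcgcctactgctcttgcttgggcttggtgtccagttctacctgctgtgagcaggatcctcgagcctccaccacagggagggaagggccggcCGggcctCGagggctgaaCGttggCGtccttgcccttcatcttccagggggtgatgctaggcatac
Depp1: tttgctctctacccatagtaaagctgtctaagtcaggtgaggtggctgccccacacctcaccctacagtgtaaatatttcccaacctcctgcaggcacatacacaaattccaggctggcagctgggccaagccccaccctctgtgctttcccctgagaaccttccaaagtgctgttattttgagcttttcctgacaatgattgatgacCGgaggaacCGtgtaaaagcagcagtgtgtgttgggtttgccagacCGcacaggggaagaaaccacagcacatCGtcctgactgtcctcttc
Cavin4: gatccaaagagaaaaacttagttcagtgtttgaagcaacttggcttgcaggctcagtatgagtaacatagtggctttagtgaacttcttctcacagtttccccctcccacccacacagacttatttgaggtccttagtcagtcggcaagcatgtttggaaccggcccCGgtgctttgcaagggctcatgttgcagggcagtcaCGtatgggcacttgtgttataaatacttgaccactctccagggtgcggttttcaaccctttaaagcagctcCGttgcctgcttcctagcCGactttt
E330017L17Rik: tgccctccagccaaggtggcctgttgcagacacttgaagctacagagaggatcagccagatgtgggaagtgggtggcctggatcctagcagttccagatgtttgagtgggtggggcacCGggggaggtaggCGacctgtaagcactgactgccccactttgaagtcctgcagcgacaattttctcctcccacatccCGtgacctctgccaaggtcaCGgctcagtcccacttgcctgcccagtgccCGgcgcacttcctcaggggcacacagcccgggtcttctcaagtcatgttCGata
The *Nme8* stretch lies at chr13:19697711-19698010 on the minus strand and holds 9 CpGs, of which 4 were listed in all 6 libraries. The *Depp1* stretch lies at chr6:116650434-116650733 on the plus strand, and all 4 of its CpGs were listed. The *Cavin4* stretch lies at chr4:48663264-48663563 on the plus strand with 4 of 7 CpGs listed, and that of *E330017L17Rik* at chr4:129905976-129906275 on the plus strand with 6 of 9 listed. Among promoters whose 300 bases held 0 to 4 CpGs, as at *Depp1*, the median early beta value was 0.643, and among those with 5 to 9 CpGs, as at the other 3, it was 0.456. Promoters with 20 or more CpGs had a median of 0.0112.

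The 6 libraries listed 1396072 to 1711411 CpG cytosines each. Days 9 and 20 listed the fewest, 1417046 and 1396072, while the other 4 days listed at least 1664986. These 2 libraries also stood apart in the values themselves. The share of cytosines at exactly 0 was 45.3% on day 9 and 46.1% on day 20, against 37.5% to 39.4% on the other days, and the share at exactly 1 was 27.4% and 26.1% against 13.3% to 18.9%. At the 88641 CpGs with both cytosines listed, the mean absolute difference between the strands was 0.128 on day 9 and 0.131 on day 20 and 0.0890 to 0.104 on the other days. Read counts do not come with these values, so the depth behind each cytosine is unknown and no interval is given for single cytosines. Since 1 of the 2 libraries was early and the other late, the early-to-late difference of the library means, the promoter and cytosine tests of the line and the promoters named by rule were also computed without both.

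*Sdhc*, the gene targeted in this line, was checked first. The annotated gene spans chr1:171129157-171150640 on the minus strand. Its promoter, with 14 listed cytosines, had beta values of 0.0260, 0.0189 and 0.00714 on days 0, 5 and 9 and of 0.0659, 0.0143 and 0.000 on days 12, 16 and 20. It was thus almost free of methylation on every day, and the periods overlapped (M-value difference 0.03 ± 0.81 SE, limma, Benjamini-Hochberg adjusted p = 1.00). In the rest of the gene each library listed only 4 to 9 cytosines, with mean beta values of 0.925 to 0.980. RRBS does not show whether exon 4 was removed, so these values do not check the genotype of the libraries.

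Over the whole set of cytosines the methylation of the line was close to the same on early and late days. A total of 1049904 autosomal cytosines were listed in all 6 libraries, and their mean beta values were 0.410, 0.411 and 0.416 on days 0, 5 and 9 and 0.413, 0.404 and 0.409 on days 12, 16 and 20. The late mean (0.409 ± 0.00440, SD, n = 3) was 0.00376 below the early mean (0.412 ± 0.00327, SD, n = 3), with an exact two-sided permutation p of 0.4, where 3 against 3 libraries cannot reach less than 0.1. The 2 sets of values overlapped, and leaving out 1 library moved the difference to between -0.00586 (without day 12) and -0.00148 (without day 16). Across the 6 days the mean beta value had a Pearson r with day of -0.361 (exact permutation p = 0.492, adjusted over 4 relations 0.653) and a Spearman rho of -0.429 (p = 0.419, adjusted 0.714). Without days 0 and 20, the days farthest from the median, r was -0.596, and leaving out 1 library gave r from -0.544 (without day 0) to -0.108 (without day 16). The line was intermediate at 16.9% to 24.2% of cytosines (beta 0.2 to 0.8), with the 2 lowest shares on days 9 and 20, the libraries with the fewest cytosines listed. Without days 9 and 20 the late mean was 0.00208 below the early mean.

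**Figure D1:**
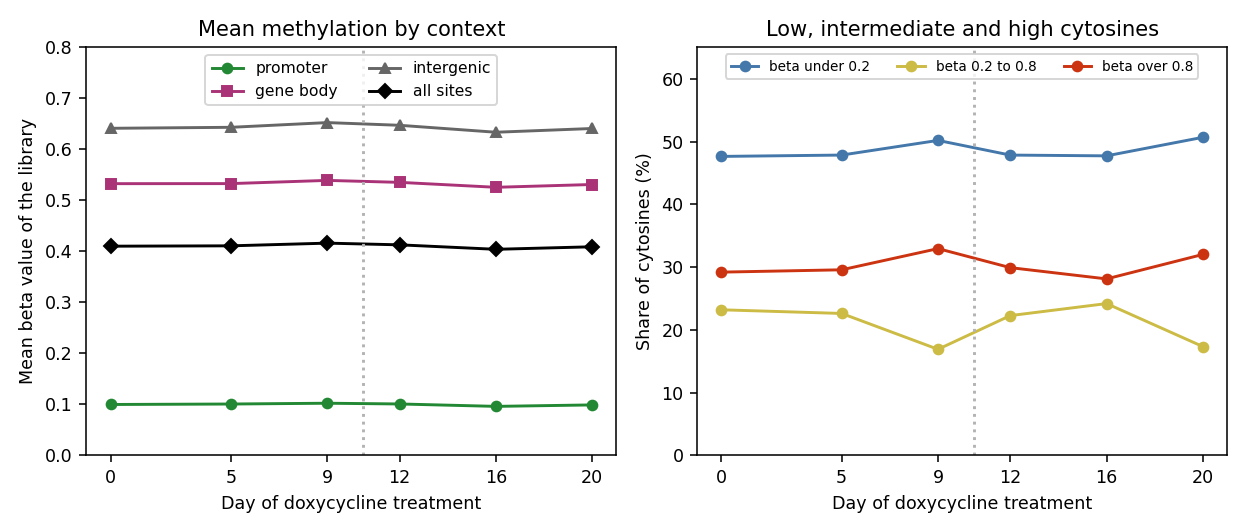
Left, mean beta value of each library (y axis) by day of doxycycline treatment (x axis) for promoter, gene body, intergenic and all cytosines. Right, share of the 1049904 cytosines in percent (y axis) with beta values under 0.2, from 0.2 to 0.8 and over 0.8 by day, where the dotted line parts early from late days, and days 9 and 20 have the lowest intermediate shares (16.9% and 17.3%).

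Promoter cytosines were the least methylated and intergenic cytosines the most, and the late mean of each context lay slightly below the early mean. The 345335 promoter cytosines had a mean of 0.101 early and 0.0985 late, a difference of -0.00230 (SDs 0.00124 and 0.00238). The 512940 gene body cytosines had means of 0.535 and 0.531, and the 191629 intergenic cytosines of 0.646 and 0.641. Exact permutation p-values for these 3 contexts were 0.3, 0.4 and 0.4, all above the smallest the design allows. Around transcription starts the mean was lowest in the 250 bases upstream of the start, at 0.0439 (day 16) to 0.0481 (day 9), and day 16 was the lowest library and day 9 the highest there as well as over all cytosines. The cytosines were also split by the mean level of the control line, for those listed in at least 4 of its libraries. Those under 0.2 in the control line (487323) had means of 0.0488 early and 0.0477 late, those from 0.2 to 0.8 (244857) of 0.585 and 0.577, and those over 0.8 (284363) of 0.887 and 0.882. Neither the sparsely nor the densely methylated class moved by more than 0.00529, with exact permutation p-values of 0.4 and 0.3.

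The spread within a period was as large as the difference between periods. For each pair of libraries the share of cytosines that differed by more than 0.2 was counted. It was 19.03% to 23.4% for the 3 pairs within the early days, 18.9% to 23.9% for the 3 pairs within the late days and 17.6% to 25.02% for the 9 pairs of an early with a late day. Among pairs that left out days 9 and 20, the shares were 19.03%, 18.9% and 17.6% to 19.9%. The ranges overlapped almost fully. For promoters the shares were similar, since 2.63% to 4.73% differed by more than 0.2 within the early days, 2.58% to 4.88% within the late days and 2.35% to 6.85% between them.

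A promoter was the window from 1500 bp before a start to 500 bp after it, with at least 3 of the cytosines listed in all 6 libraries. This gave 15337 promoters (15310 distinct windows, 11801 of protein-coding genes) with a median of 21 cytosines. On early days 11056 of them (72.1%) had a mean beta value under 0.2, 2957 (19.3%) lay from 0.2 to 0.8 and 1324 (8.63%) over 0.8. The comparison used limma on the M-value, the log2 ratio of methylated to unmethylated share after 0.01 was added to both, and p-values were adjusted over all promoters. No promoter passed an adjusted p of 0.05 between early and late days, 0 of 15337, and the smallest adjusted p was 0.421. At an unadjusted limma p under 0.05 there were 768 promoters (5.01%), of which 342 (2.23%) were higher late and 426 (2.78%) lower. The larger number of lower promoters was not kept without day 20 (388 higher and 375 lower). With each library centred there were 370 higher and 378 lower. In 1429 promoters (9.32%) the 3 late values did not overlap the 3 early values, 657 of them higher (4.28%) and 772 lower (5.03%). Without days 9 and 20 the counts were 0 adjusted and 830 unadjusted.

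The size of the differences was small for most promoters. The median absolute difference was 0.00878, against a median SD within a period of 0.0158. The 95% interval of a promoter's difference reached a median of 0.0314 to either side. Differences over 0.1 were found in 949 promoters (6.19%) and over 0.2 in 150 (0.978%), mostly in promoters with few cytosines. Among promoters with 3 or 4 cytosines 25.5% differed by more than 0.1, among those with 5 to 9 cytosines 12.3%, and among those with 50 or more 0.323%. Across promoters, which are not independent replicates, the early and late means had a Pearson r of 0.986.

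Promoters that were low in one period and high in the other were rare. Only *Klhl38* and *Gm2399* had an early mean under 0.2 and a late mean over 0.5, and only *Sh2d5* and *Gm34799* an early mean over 0.8 and a late mean under 0.5. These 4 were singled out after their values were seen, and the first 3 rest on 4 cytosines each. The *Klhl38* values were 0.278, 0.176 and 0.0853 on days 0, 5 and 9 and 0.446, 0.531 and 0.626 on days 12, 16 and 20. Those of *Sh2d5* were 0.708, 0.750 and 1.00 and then 0.250, 0.333 and 0.0900. Their periods did not overlap, but neither passed (limma adjusted p = 0.877 and 0.904).

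**Figure D2:**
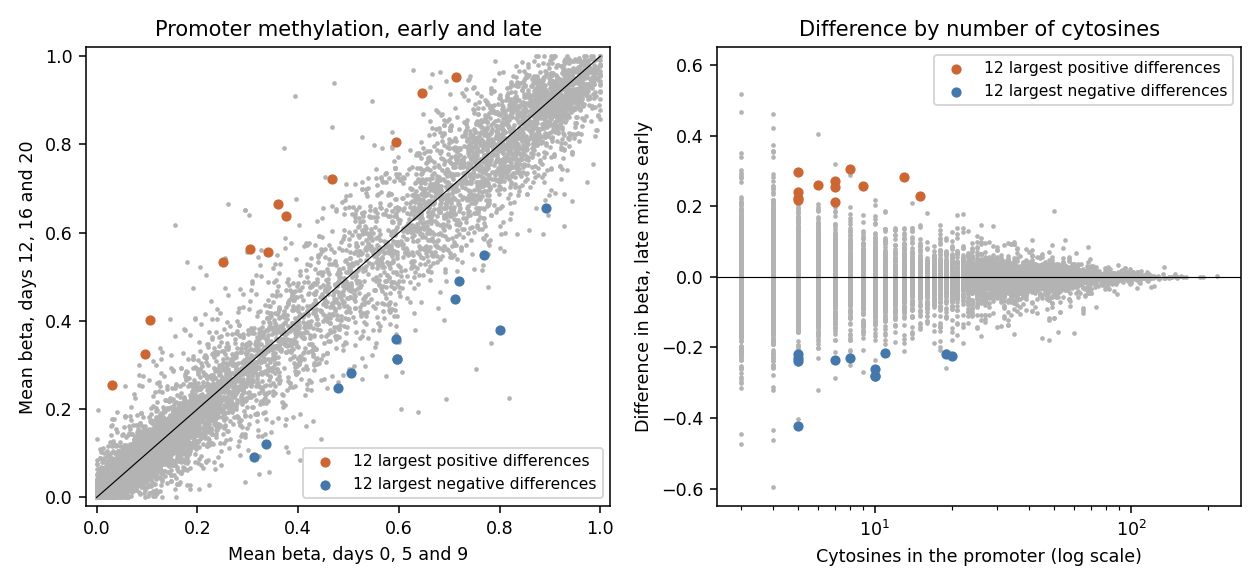
Left, mean beta value on late days (y axis) against early days (x axis) for 15337 promoters (grey), with the line of equality. Right, difference in beta value (y axis) against the number of cytosines in the promoter (x axis, log scale). The 12 largest positive and 12 largest negative differences that meet the naming rule are coloured, and large differences sit at promoters with few cytosines, where 25.5% of those with 3 or 4 differed by more than 0.1.

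The promoters described next had at least 5 cytosines, an unadjusted p under 0.05 and periods that did not overlap, which 612 promoters met (274 higher late, 338 lower). They were ranked by the difference in beta value and the first 12 in each direction were taken. Selection on the difference guarantees that they look distinct, and none passed the adjusted threshold. Their values are a description of where the line differed most. In the sentences that follow, values are promoter beta values on days 0, 5 and 9 and then on days 12, 16 and 20, and differences are late minus early.

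*Gpx3*, which encodes the secreted glutathione peroxidase of plasma, had the largest positive difference. Its 8 cytosines averaged 0.403, 0.371 and 0.307 early and 0.658, 0.589 and 0.750 late. On day 20 each of the 8 was at exactly 0 or 1, and the depth behind these values is unknown. Each late value lay above each early value, with a difference of 0.305 (95% interval 0.175 to 0.435) and an M-value difference of 1.81 ± 0.34 (SE, limma adjusted p = 0.753). The difference was uneven along the window, since 6 of the 8 cytosines were higher late and single cytosines ranged from -0.0740 to 0.738. The 4 other cytosines within 5000 bp were highly methylated on all days, 0.850 to 1.00.

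*Prrx1*, a homeobox transcription factor of limb and craniofacial mesenchyme that fibroblasts express, differed with more cytosines behind it. Its 15 cytosines, at positions -188 to 77 bp from the start, averaged 0.174, 0.0750 and 0.0418 early and 0.222, 0.351 and 0.402 late. The late values were all higher, although day 0 and day 12 were only 0.174 and 0.222. Of the 15 cytosines 14 were higher late, and the 25 other cytosines within 5000 bp had 0.00400 to 0.0587. Several of the 15 shared a value within a library, such as 0.583 on day 20, so they are not independent. Those at -152, -157 and -188 bp were at 0 on day 20. The difference was 0.228 (95% interval 0.0689 to 0.388, limma adjusted p = 0.904), and without days 9 and 20 the M-value difference was 1.51 with an unadjusted p of 0.0889.

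*Krt19*, a keratin of simple epithelia, was nearly unmethylated early (0.0400, 0.0125 and 0.0400) and had 0.418, 0.213 and 0.133 late. The late days were all above the early days but far apart from each other, with an SD of 0.147. All 5 of its cytosines were higher late, 4 of them between 438 and 487 bp downstream of the start. On day 20 only the cytosine at 487 bp (0.667) was above 0. The 13 other cytosines within 5000 bp differed by -0.00773. The M-value difference of the *Krt19* promoter was 3.04 ± 0.65 (SE, limma adjusted p = 0.790).

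*Nme8*, a thioredoxin-domain protein of the motile cilium, is the first sequence shown above. Its 5 cytosines averaged 0.165, 0.0424 and 0.111 early and 0.225, 0.323 and 0.660 late, with day 20 far above the other late days. Without day 20 the M-value difference was 1.73 in place of 2.51, with an unadjusted p of 0.0548. The 4 CpGs in capitals averaged 0.152, 0.000 and 0.139 and then 0.214, 0.309 and 0.812. All 5 cytosines were higher late, yet the 95% interval of the difference of 0.296 ran from -0.0292 to 0.622 (limma adjusted p = 0.904). Without days 9 and 20 the unadjusted p was 0.102.

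The 8 further promoters in this direction were those of 3 protein-coding genes with a known family or role (*Zfp536*, *Nipsnap3a* and *Esp24*), of the protein-coding gene model *Gm28455*, of 2 long non-coding RNAs (*AI839979* and *Gm52024*) and of 2 pseudogenes (*Npm3-ps1* and *Gm6190*). *Esp24*, an exocrine gland peptide of the mouse pheromone family, had the tightest values, 0.357, 0.307 and 0.355 and then 0.511, 0.557 and 0.6. Its difference was 0.216 (95% interval 0.143 to 0.290, limma adjusted p = 0.753), but only 3 of its 5 cytosines were higher late. *Zfp536*, a zinc finger repressor of neuronal differentiation, had 0.851, 0.8 and 0.488 and then 0.914, 0.945 and 1.00, where day 9 lay apart from the other 2 early days. Without day 9 its M-value difference was 2.41 in place of 3.16, with an unadjusted p of 0.0936. Without day 20 it was 2.14, and the 95% interval of the beta difference ran from -0.0372 to 0.517. *Gm28455* had 13 cytosines that were all higher late, with 0.287, 0.286 and 0.182 and then 0.527, 0.629 and 0.448. The M-value difference of *Npm3-ps1* turned from 3.27 to -0.22 with only the cytosines listed in all 12 libraries. Without days 9 and 20 it was 1.54, with an unadjusted limma p of 0.138. In the control line the *Npm3-ps1* promoter had an M-value difference of 3.36 (limma unadjusted p = 0.0231, adjusted p = 0.847). Differences in beta value of the 8 ranged from 0.211 to 0.283, and their limma adjusted p-values from 0.753 to 0.904.

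In the other direction the difference furthest from 0 belonged to *Gm34799*, a long non-coding RNA. Its 5 cytosines averaged 0.823, 0.676 and 0.905 early and 0.427, 0.445 and 0.263 late. All 5 were lower late, and the difference was -0.423 (95% interval -0.635 to -0.211, limma adjusted p = 0.821). The 3 other cytosines within 5000 bp differed by -0.0875.

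*Hapln1*, which encodes the link protein that holds aggrecan to hyaluronan in cartilage matrix, had the lowest unadjusted limma p among the 12 promoters taken in each direction. The same 10 cytosines served as promoter of *Hapln1* and of *Gm34699*, a long non-coding RNA on the opposite strand, so these are a single measurement. They averaged 0.532, 0.617 and 0.638 early and 0.346, 0.303 and 0.292 late. All 10 were lower late, with single differences of -0.667 to -0.0375, and lay at positions -1167 to -960 bp from the start of *Hapln1*. The difference was -0.282 (95% interval -0.369 to -0.195), and the unadjusted p of 0.000662 was 0.753 after limma's adjustment.

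*Rftn1*, which encodes the lipid raft protein raftlin, had 19 cytosines between 173 and 426 bp downstream of the start. They averaged 0.289, 0.223 and 0.424 early and 0.125, 0.0818 and 0.0693 late. Of the 19 cytosines 17 were lower late, 1 of them with a difference of -0.741, while the 12 other cytosines within 5000 bp had 0.679 to 0.924 with no separation of the periods. The M-value difference was -2.05 ± 0.42 (SE, limma adjusted p = 0.765).

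**Figure D3:**
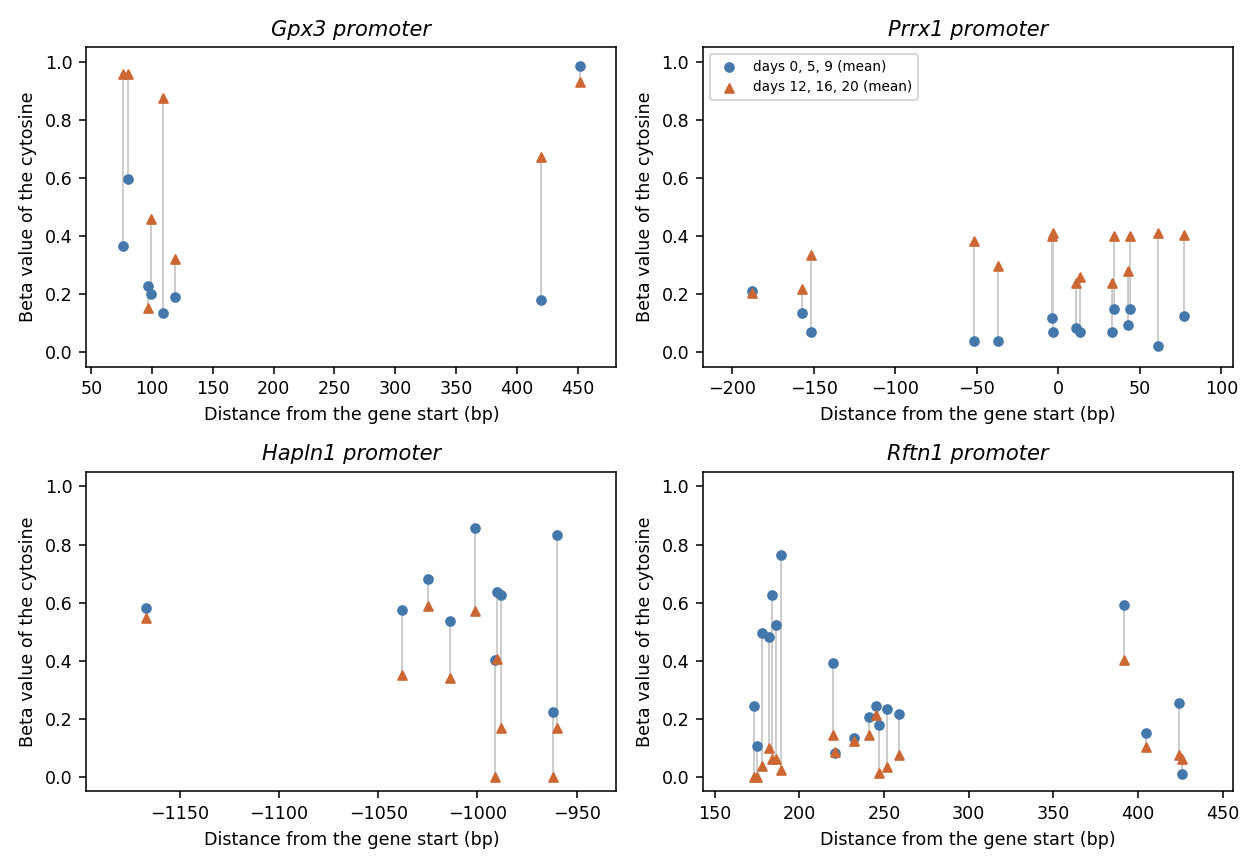
Mean beta value of each cytosine (y axis) on early days (circles) and late days (triangles) by distance from the gene start in bp (x axis) in the promoters of *Gpx3*, *Prrx1*, *Hapln1* and *Rftn1*. Grey lines join the 2 values of a cytosine, 14 of 15 cytosines were higher late at *Prrx1* and 17 of 19 were lower late at *Rftn1*.

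*Depp1*, a FOXO-responsive gene of autophagy and oxidative stress, and *Traf1*, an adaptor of TNF receptors, also lay lower late. *Depp1* had 0.537, 0.431 and 0.468 and then 0.328, 0.282 and 0.135, with day 20 the lowest. All 5 of its cytosines were lower late, and the 4 CpGs capitalised in its sequence averaged 0.511, 0.393 and 0.425 and then 0.265, 0.280 and 0.168. Its 16 neighbours within 5000 bp had 0.756 to 0.854 on all days. *Traf1* had 0.631, 0.499 and 0.652 and then 0.342, 0.490 and 0.244, where day 5 and day 16 nearly met. Neither passed (limma adjusted p = 0.904 for both). Without days 9 and 20 the M-value difference of *Traf1* was -0.87 in place of -1.40, with an unadjusted limma p of 0.162.

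*E330017L17Rik*, a long non-coding RNA, had nearly identical early values of 0.710, 0.703 and 0.719 and late values of 0.392, 0.598 and 0.362. Only 6 of its 10 cytosines were lower late, and 1 of them differed by -0.941. The 6 CpGs in capitals in its sequence had 0.528, 0.547 and 0.577 and then 0.487, 0.505 and 0.271, closer together than the whole promoter. Without days 9 and 20 its unadjusted p was 0.0739. The 6 other promoters in this direction belonged to *Slc35f4*, a member of a solute carrier family, to *Mir1905*, a microRNA gene, and to 4 long non-coding RNAs (*LOC108168713*, *Gm32834*, *1810063I02Rik* and, as said, *Gm34699*). *Mir1905* rested on 20 cytosines, of which 18 were lower late, and had 0.433, 0.554 and 0.529 and then 0.337, 0.189 and 0.317. Apart from *Gm34699*, the differences of these 6 ranged from -0.237 to -0.216. Without days 9 and 20 the unadjusted limma p was 0.0637 for *Mir1905*, 0.0709 for *Slc35f4* and 0.0527 for *1810063I02Rik*.

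**Figure D4:**
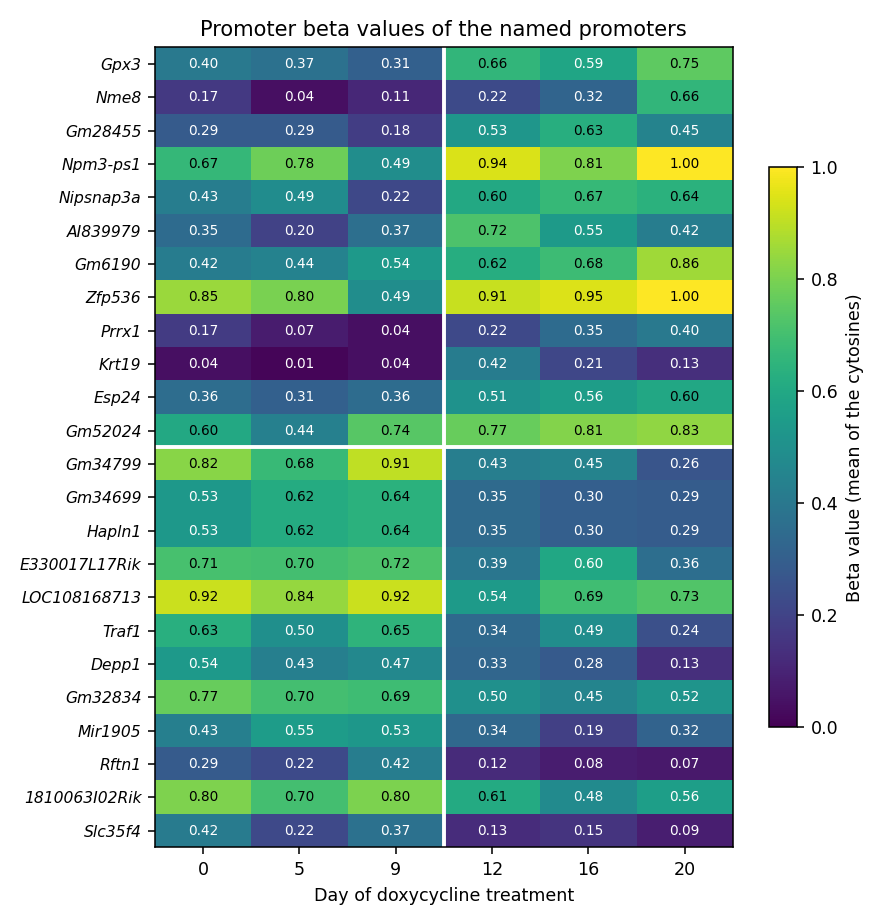
Promoter beta value (colour, from 0 to 1, and printed number) of the 12 largest positive differences (upper block) and the 12 largest negative differences (lower block) on each day (columns). White lines part early from late days and the 2 directions, *Hapln1* and *Gm34699* share their cytosines, and no promoter passed an adjusted p of 0.05.

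A steady course over the 6 days was tested as a linear trend of the M-value with day. No promoter passed (0 of 15337, limma, smallest adjusted p 0.835), and 870 (5.67%) had an unadjusted p under 0.05, 356 upwards (2.32%) and 514 downwards (3.35%), or 392 and 423 with each library centred. The count was lowest without day 20, at 536, and was 742 to 1104 without each of the other libraries. Among promoters with 5 or more cytosines, 4 in each direction with the largest fitted difference between days 0 and 20 were taken, beyond those already named. *Cavin4*, a coat protein of muscle caveolae, had 0.0614, 0.0953, 0.0972, 0.164, 0.184 and 0.481 on the 6 days in order. Each value lay above that of the day before it, with the largest step at day 20. The slope was 0.16 ± 0.03 M-value units per day (SE, limma adjusted p = 0.835), and all 6 of its cytosines were higher late. The 4 CpGs in capitals in its sequence had 0.0395, 0.0633 and 0.0439 and then 0.143, 0.129 and 0.444.

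The other upward trends were at the pseudogenes *Gm11843* and *Gm6054* and the long non-coding RNA *Gm38877*. *Gm38877* was listed at 0.000 to 0.0103 up to day 12 and at 0.220 and 0.376 on days 16 and 20. *Gm11843* had 0.0818 on day 0 and 0.592 on day 20, with day 12 (0.192) below days 5 and 9. The downward trends were at *Bex6*, a brain-expressed gene, *Sema6a*, a membrane semaphorin that guides axons, the pseudogene *Gm7271* and the long non-coding RNA *Gm38424*. *Sema6a* had 0.898, 0.856, 0.733, 0.768, 0.741 and 0.5 in order of day, and its last value was again the most extreme. In each of these 8 promoters day 20 was the library with the highest or the lowest value, and their limma adjusted p-values were all 0.835.

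Single cytosines gave the same result. Of the 1049904 cytosines, 286071 (27.2%) had the same value in all 6 libraries, 254484 of them 0 and 31587 of them 1, and were left out of the test. None of the 763833 others passed between early and late days (0, limma, smallest adjusted p 0.0929), and 29198 (3.82%) had an unadjusted p under 0.05, 13210 higher (1.73%) and 15988 lower (2.09%). The larger number of lower cytosines was not kept without day 9 (15196 higher and 14225 lower). With each library centred there were 14480 higher and 15109 lower. On the beta scale 22 cytosines passed with limma, 11 in each direction. In 45333 cytosines (5.93%) the periods did not overlap, with late values higher in 20898 (2.74%) and lower in 24435 (3.20%). The trend gave 0 adjusted and 36496 (4.78%) unadjusted, 17051 upwards (2.23%) and 19445 downwards (2.55%). The largest possible difference, from 0 in all 3 early libraries to 1 in all 3 late ones, was seen at 8 cytosines and its reverse at 9. These 17 shared the smallest adjusted p on the M-value scale.

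Most of the 17 complete switches had neighbours that differed far less. At the 16 that had other listed cytosines within 100 bp, these moved in the same direction by a median of 0.204. Only 1 had neighbours that moved by more than 0.5, and 5 had neighbours that moved by less than 0.1. Those named, in genome order, went from 0 to 1 at chr2:19103006 in *Gm13332*, at chr3:26379772 outside genes, at chr4:135032223 outside genes and at chr6:103649055 in *Chl1*. They went from 1 to 0 at chr1:132732630 in *Nfasc* and *Gm10538*, at chr1:153679389 in *Rgs8*, at chr5:77803852 outside genes and at chr5:143293004 in *Zfp853*. *Chl1* and *Nfasc* encode neural adhesion molecules and *Rgs8* a regulator of G-protein signalling. At *Zfp853* the 9 neighbouring cytosines had 0.501 early and 0.513 late. In the control line, 5 of 488754 cytosines went fully from 0 to 1 and 6 from 1 to 0.

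The control line gives the background for the same comparison. Its early and late days gave 0 of 13736 promoters adjusted and 712 (5.18%) unadjusted in limma, 196 higher (1.43%) and 516 lower (3.76%), and 0 adjusted and 19655 (4.02%) unadjusted of 488754 cytosines, 10662 higher (2.18%) and 8993 lower (1.84%). Its trend gave 773 promoters unadjusted (5.63%; 173 upwards, 1.26%, and 600 downwards, 4.37%) and 16499 cytosines (3.38%; 8965 upwards, 1.83%, and 7534 downwards, 1.54%), with 0 adjusted for both. The percentages were close to those of the experimental line (5.01% and 3.82%). The difference between the lines in the early-to-late difference was tested as an interaction over 13141 promoters with cytosines listed in all 12 libraries. No promoter passed (0, limma, smallest adjusted p 0.247), and 712 (5.42%) had an unadjusted p under 0.05, 451 of them positive (3.43%) and 261 negative (1.99%). The interaction was not tested for single cytosines or for promoters without 3 cytosines listed in all 12 libraries, among them *Gpx3*, *Nme8*, *Krt19*, *Esp24*, *Zfp536*, *Gm6190*, *Gm34799*, *Depp1* and *Gm32834*.

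**Figure D5:**
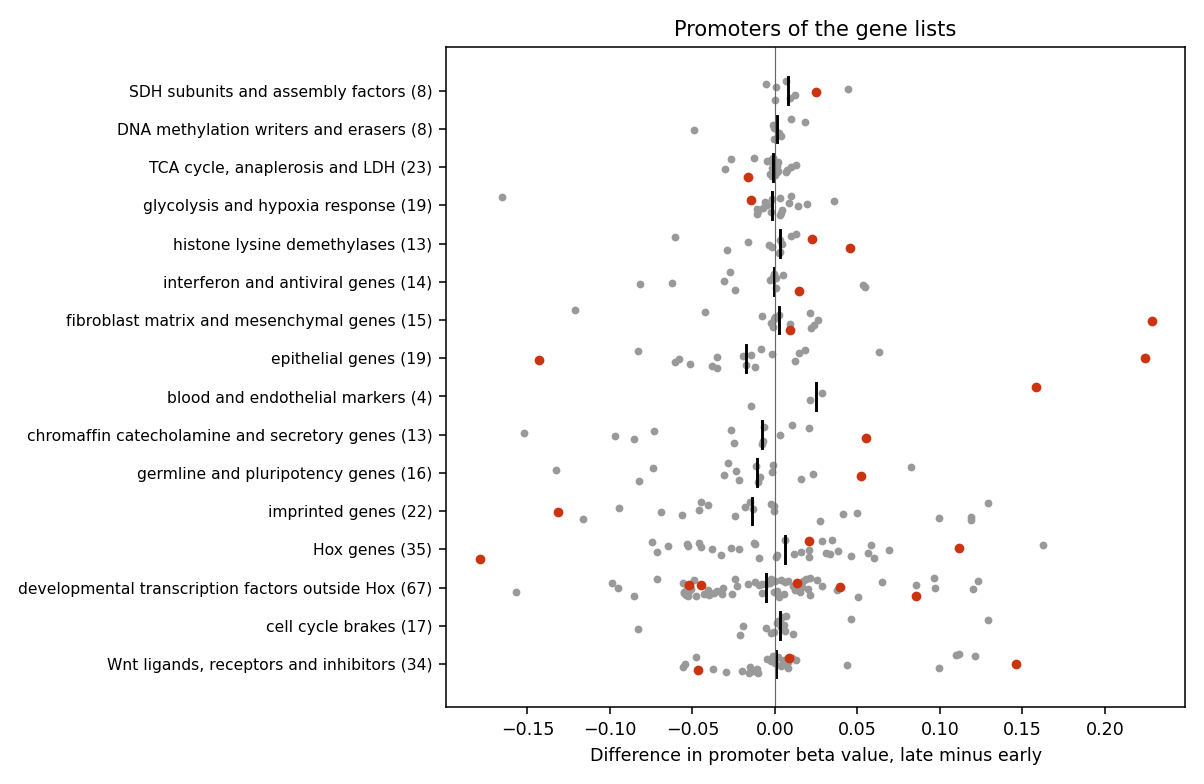
Difference in promoter beta value, late minus early (x axis), for the measured members of 16 gene lists (y axis, number measured in brackets). Points are promoters, red where the unadjusted p was under 0.05, black bars are list medians, and the medians lie between -0.0172 and 0.0249.

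Genes tied to the metabolism of succinate and to methylation itself were followed as lists. None of the members of the 16 lists passed the adjusted threshold, and counts below are at the unadjusted limma p under 0.05, beside 5.01% of all promoters and a median difference over all promoters of -0.000478. The SDH subunits and assembly factors were all measured, 8 of 8, and all had early means under 0.2. Their median difference was 0.00799, and 1 was higher late. This was *Sdhaf4*, an assembly factor of the complex, with 0.000, 0.0111 and 0.000 and then 0.0144, 0.0251 and 0.0463. The promoters of the subunit genes *Sdha*, *Sdhb* and *Sdhd* had at most 0.0355 on any day, the value of *Sdhb* on day 20. Their limma adjusted p-values were 0.904, 0.904 and 1.00.

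The writers and erasers of DNA methylation were measured at 8 of 11 genes, and none passed even the unadjusted threshold in either direction. *Tet1*, a TET dioxygenase, had 0.0347, 0.0450 and 0.230 and then 0.0451, 0.0782 and 0.0395, so day 9 alone stood out. Its difference of -0.0488 turned to the other direction without day 9. *Tet2* lay between 0.000 and 0.05 on all days. *Tet3* lay between 0.149 and 0.239, with its 2 highest values on days 9 and 20. *Dnmt3b*, a de novo methyltransferase, was the steadiest with 55 cytosines at 0.0492 to 0.0698 (difference -0.000932, 95% interval -0.0198 to 0.0179). *Dnmt1* and *Dnmt3a* had fewer than 3 listed cytosines and are not reported.

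Of the TCA cycle, anaplerosis and LDH list 23 of 27 were measured, with 0 higher and 1 lower. This was *Suclg2*, a subunit of the succinyl-CoA ligase that makes succinate. Its 36 cytosines averaged 0.0203, 0.0137 and 0.0182 early and 0.00278, 0.000 and 0.000842 late. The periods did not overlap, although all 6 values were at or below 0.0203, with an M-value difference of -1.31 ± 0.20 (SE, limma adjusted p = 0.753). *Ldha*, lactate dehydrogenase A, had 0.709 to 0.875 and *Pcx*, pyruvate carboxylase, 0.00785 to 0.0441, with overlapping periods. Of glycolysis and hypoxia genes 19 of 27 were measured with 0 higher and 1 lower, *Egln2*, a 2-oxoglutarate-dependent prolyl hydroxylase of HIF (0.0402, 0.0406 and 0.0443, then 0.0284, 0.0308 and 0.0231). With only the cytosines listed in all 12 libraries its M-value difference went from -0.49 to 0.00723 and this call was lost (unadjusted p = 0.995 in limma).

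The histone lysine demethylases, of which 13 of 17 were measured, had 2 higher and 0 lower (15.4% of the measured, beside 5.01%). *Kdm5b*, a demethylase of H3K4, had 0.000, 0.00476 and 0.00286 and then 0.0147, 0.0314 and 0.0982. *Kdm2b*, which binds unmethylated CpG islands, had 0.00320, 0.00637 and 0.0148 and then 0.0268, 0.0170 and 0.0472. Both remained below 0.1 on every day, and in both day 20 was the highest library. Neither passed the adjustment (limma adjusted p = 0.904).

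Cell type lists showed the promoter state of the line and few calls. Fibroblast matrix and mesenchymal genes (15 of 25 measured) had 2 higher and 0 lower, *Prrx1* and *Vim*. *Vim*, the intermediate filament of mesenchymal cells, stayed at 0.000 to 0.0196. Epithelial genes (19 of 24) had 1 higher, *Krt19*, and 1 lower, *Krt7*. *Krt7*, another keratin of simple epithelia, had 0.802, 0.799 and 0.748 and then 0.656, 0.643 and 0.621 over 18 cytosines (limma adjusted p = 0.765). Its values did not overlap and ran opposite to those of *Krt19*. The median early level was 0.0172 for the fibroblast list and 0.241 for the epithelial list. Both lists were mixed, with an early mean under 0.2 in 11 of the 15 fibroblast and 6 of the 19 epithelial promoters. The fibroblast collagen gene *Col1a2* lay at 0.835 to 0.963 on all days. Germline and pluripotency genes (16 of 25) had the highest median, 0.876 early and 0.892 late, and 14 of the 16 had an early mean over 0.8.

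The smaller non-fibroblast lists behaved likewise. Of blood and endothelial markers 4 of 16 were measured and 1 was higher, *Kdr*, the VEGF receptor of endothelium, with 0.470, 0.464 and 0.567 and then 0.693, 0.616 and 0.667 on 3 cytosines. *Thbd*, thrombomodulin of endothelium, was highly methylated throughout, 0.864 to 0.983. Chromaffin catecholamine and secretory genes, markers of the cell in which pheochromocytoma arises, had 13 of 17 measured with 1 higher and 0 lower. The higher one was *Ret*, a receptor tyrosine kinase, with 0.000 to 0.0296 early and 0.0317 to 0.117 late. Interferon and antiviral genes had 14 of 25 measured with 1 higher, *Usp18*, a negative regulator of interferon signalling, at 0.000 to 0.0287 on all days. The germline call was *Slc25a31*, an ADP/ATP carrier of the testis, with 0.838 to 0.890 early and 0.911 to 0.931 late.

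Developmental regulators held some of the better covered differences. Of Hox genes 35 of 39 were measured, with 2 higher and 1 lower. *Hoxd9* was the lower one, with 0.603, 0.680 and 0.584 and then 0.545, 0.343 and 0.442 over 48 cytosines. *Hoxb5* had 0.168, 0.132 and 0.122 and then 0.188, 0.292 and 0.276, and *Hoxa11* 0.00524, 0.0102 and 0.0122 and then 0.0202, 0.0393 and 0.0302. The periods did not overlap in these 3, and the limma adjusted p was 0.904 for each. With only the cytosines listed in all 12 libraries the M-value difference of *Hoxb5* turned from 0.99 to -0.15. *Hoxa6*, another homeobox gene of the cluster, was high and steady at 0.816 to 0.904.

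Of developmental transcription factors outside the Hox clusters 67 of 74 were measured, with 3 higher and 2 lower. *Lhx5*, a LIM homeobox gene of the developing brain, had 0.114, 0.132 and 0.127 and then 0.0684, 0.0930 and 0.0768 over 52 cytosines. *Lhx1* of the same family lay lower late too, with overlapping periods (0.0850 to 0.148 and 0.0474 to 0.0872). *Zic1*, a zinc finger gene of the neural tube, lay higher late, 0.0900 to 0.172 and then 0.187 to 0.255. The other 2 higher, named after their values were seen, were *Msx2* (0.00192 to 0.0113 early, 0.0273 to 0.0745 late) and *Gata6* (0.00276 to 0.0156 and then 0.0211 to 0.0230), homeobox and zinc finger factors that both stayed below 0.1. Wnt ligands, receptors and inhibitors (34 of 39) had 2 higher, *Sfrp2* and *Fzd2*, and 1 lower, *Wnt3a*. *Sfrp2*, a secreted Wnt inhibitor, had 0.0222, 0.0698 and 0.000 and then 0.304, 0.0689 and 0.158, which overlap at days 5 and 16. *Wnt3a*, a ligand, had 0.0723 to 0.110 early and 0.0179 to 0.0660 late over 63 cytosines.

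Imprinted genes, whose promoters are often methylated on 1 parental allele, had 22 of 32 measured with 0 higher and 1 lower. Their median level was 0.485 early and 0.470 late. The lower one was *Meg3*, a maternally expressed long non-coding RNA, with 0.465, 0.457 and 0.453 and then 0.349, 0.258 and 0.372 (difference -0.132, 95% interval -0.216 to -0.0476, limma adjusted p = 0.904). Of cell cycle brakes 17 of 19 were measured and none passed even the unadjusted threshold. Over the 16 lists the count of members higher or lower was between 0 and 5, and list medians lay between -0.0172 and 0.0249.

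Among the other genes of interest, *Aldh2*, mitochondrial aldehyde dehydrogenase, had 0.450, 0.596 and 0.646 and then 0.675, 0.402 and 0.536 on 4 cytosines. *Smarca5*, a chromatin remodelling ATPase, lay at 0.00290 to 0.0310 over 43 cytosines. The 14 genes of interest that were measured, *Sdhc*, *Ldha* and *Thbd* among them, had overlapping periods and unadjusted p-values of 0.230 to 0.971 in limma.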

How the data were processed

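RRBS was run on 12 libraries, of which the 6 of the experimental line were analysed and the 6 of the control line served as background. The authors aligned reads to mm10 and called methylation with Bismark, and deposited the percent of reads methylated for each CpG cytosine, without read counts and without pooling. No depth or coverage minimum could therefore be set. Bismark's version is not given in the sources used here.

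Each percent was divided by 100 to a beta value. Autosomal cytosines listed in all 6 libraries were kept, and both cytosines of a CpG counted separately. A promoter spanned 1500 bp before to 500 bp after a RefSeq start (GRCm38.p6), held at least 3 cytosines and took their mean as its beta value. The strand was read from the RefSeq promoter table, or by symbol in an older annotation from which no coordinates were taken, for 33543 of 47042 genes on autosomes. A RefSeq sequence was found for 12311 of the promoters tested (80.3%). Days 0, 5 and 9 were compared with days 12, 16 and 20, and a trend over day was fitted, with limma 3.58.1 in R 4.3.3 on M-values (offset 0.01), two-sided, with Benjamini-Hochberg adjustment over all features and a threshold of 0.05. Fits were tested on simulated data. The 95% intervals of beta differences came from limma on beta values. They used the variance within both periods, which limma draws towards that of all promoters. Library means were compared with exact permutation tests. Replicate numbers within the line only name the days and pair no early with a late library, so no block was used there.

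Named promoters had at least 5 cytosines, an unadjusted p under 0.05 and periods that did not overlap, 12 per direction by difference in beta value. Added to these were 4 trends and 4 cytosines per direction (at least 2000 bp apart, ties in genome order), 16 genes of interest, and up to 3 members per list past the unadjusted threshold. The members and lists were chosen with earlier results of these data known. Alternatives were other offsets, beta values, site filters, medians, centring, array weights and leaving out libraries.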

Additional observations from a re-analysis of the deposited data

How the results depend on the processing

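The absence of promoters and cytosines past the adjusted threshold held in most settings. The exceptions were few, with different promoters in each setting. With an M-value offset of 0.001, 3 promoters passed between early and late days (*Gm15953*, *Rbpj* and *Sema3f*, whose early values were all exactly 1 or 0). With promoters of at least 1 cytosine, 3 passed (*Krt222*, *Matn1* and *Ntm*, each with fewer than 3 cytosines), and with cytosines listed in all 12 libraries, 1 passed (*Gm33149*). Leaving out each library in turn gave 0 to 1, the 1 being *Gm9843* without day 20. These were named after their values were seen. On the beta scale 22 cytosines passed in limma, among them the 8 complete switches named above (smallest adjusted p of these 0.0128). At the unadjusted threshold, promoter medians gave 155 promoters for early against late and 213 for the trend, and cytosines listed in all 12 libraries gave 18781 and 22040 of 473911 cytosines. Leaving out each library gave 730 to 912 promoters and 29421 to 32620 cytosines between periods, and 536 to 1104 promoters and 18616 to 44738 cytosines for the trend, the lowest trend counts without day 20. The libraries of days 9 and 20 were left out together as an alternative chosen after seeing the data, with 0 adjusted calls. The interaction between the lines had 0 adjusted and 751 unadjusted promoters with day as a replicate block, against 0 and 712 without it.

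Some differences reversed, at promoters with values near 0 and at higher ones such as *Ldha*, *Hoxa6* and *Thbd*, and the cause was not tested. With cytosines listed in all 12 libraries the M-value differences were -0.22 for *Npm3-ps1*, -0.14 for *Sdha*, -0.23 for *Tet3*, 0.00723 for *Egln2* and -0.15 for *Hoxb5*. With promoter medians they were 1.51 for *Hoxa6* and -0.37 for *Tet3*, with offset 0.001 -0.68 for *Sdhc*, on the beta scale 8.43e-06 for *Sdhd*, and after centring 0.0111 for *Dnmt3b* and 0.0140 for *Sdhd*. Without days 9 and 20 they were 0.10 for *Aldh2*, 0.00472 for *Dnmt3b*, 0.19 for *Ldha*, 0.0741 for *Sdhd*, 0.53 for *Tet1* and -0.10 for *Tet2*. Leaving out each library gave -0.55 to 0.24 for *Aldh2*, -0.12 to 0.10 for *Dnmt3b*, -0.32 to 0.14 for *Hoxa6*, -0.56 to 0.15 for *Ldha*, -0.69 to 0.14 for *Pcx*, -0.76 to 0.75 for *Sdhc*, -0.28 to 0.24 for *Sdhd*, -1.02 to 0.35 for *Tet1*, -0.16 to 1.17 for *Tet2*, -0.19 to 0.30 for *Tet3* and -0.21 to 1.09 for *Thbd*. Apart from *Npm3-ps1*, *Egln2* and *Hoxb5*, the promoters named by rule for an early-to-late difference kept their direction in the settings run, which did not include *Klhl38*, *Gm2399*, *Sh2d5*, *Msx2* and *Gata6*. Limits are the unknown depth, 3 libraries per period, a single line per genotype, and RRBS coverage of CpG-rich DNA.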
